A study of Homo sapiens with 18 samples.

Results

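HCT116 cells, a human colorectal cancer line, expressed 170 genes whose names consist of LINC and a 5-digit number, the standard form for a long intergenic noncoding RNA gene without a named function. They were picked from the 61552 genes of the raw count table, of which 2271 carry such a name and 1251 of those had at least 1 count. A gene was selected on its measured level, which had to reach a mean of 1 CPM (the gene's count scaled by the total count of its library, so that libraries of unequal depth can be set side by side) over the 3 libraries of at least 1 of the 6 groups. Just inside this limit were LINC02595 with 1.04 CPM and LINC01836 with 1.02 CPM in their highest group, and just outside were LINC01967 with 0.980 CPM and LINC01807 with 0.974 CPM.

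Total RNA was sequenced from 18 libraries of knock-in cells that carried 1 of 3 forms of IκBα, which binds NF-κB and keeps it out of the nucleus: wild type (WT), the N108 mutant, or the M3 mutant, in which H84, E85 and E86 were changed to alanine. Each form was sampled in 3 replicates without treatment and in 3 after human TNFα (0.1 µg/mL) had been added for 40 min. All cells grew in the same medium with 10% fetal bovine serum, and the controls are themselves knock-ins. The series is named for mutants that separate the functions of IκBα and for a role of the protein that does not go through NF-κB. The labels name 3 genotypes of 1 parental line and do not say how many clones each represents, so a mutation cannot be told apart from its line. They also do not say that replicates were separate cultures, so the p-values rest on a spread that may be technical only.

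Long intergenic noncoding RNAs are transcribed by RNA polymerase II, mostly capped, spliced and polyadenylated like messenger RNAs, and do not encode a long protein. Many stay in the nucleus, occur at few copies per cell and are found in few cell types. A small number have been tied to chromatin, splicing or RNA stability, and some act on genes beside their own locus, whereas for most no function has been established.

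The libraries held between 49021907 and 76947190 counts, and after treatment the NF-κB targets TNFAIP3 and CXCL8 had group means above the untreated ones in each line. The cells carried epithelial markers, with EPCAM at 287 to 355 CPM by group and highest in M3. The sum of EPCAM, KRT8, KRT18, KRT19, CDH1, CLDN4 and CLDN7 was lower in the mutants. Without treatment it was 6774 CPM in WT, 5299 CPM in N108 and 4517 CPM in M3. KRT18 alone had 1319, 1000 and 665 CPM. The fibroblast genes LUM and DCN were at 0 in every library and the leukocyte gene PTPRC was at or near 0. Of the endothelial genes, VWF was at 0.693 to 1.47 CPM by group, and PECAM1 and CDH5 were near 0. COL1A1, a fibroblast gene, stood at 17.2 to 33.2 CPM by group, and the leukocyte gene LYZ at 2.67 and 3.30 CPM in the WT groups against 0.112 to 0.260 CPM in the mutant groups. The part of these genes in the results below was not tested. No library was a copy of another in its own group, since replicates differed by more than counting noise in each group. Libraries of different groups were not compared in this way.

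In GENCODE 29, 168 of the 170 genes have a position on GRCh38, on 23 chromosomes. The annotation classes 130 of them as lincRNA and 16 as processed transcripts, 8 are transcribed pseudogenes, and 2, LINC02693 and LINC03040, were still listed as protein-coding genes (C17orf51 and C6orf223). A coding gene overlaps 15 of the 168, and the other 153 lie a median of 20704 bp from the nearest one. Whether counting used the strand is not stated in the labels, so reads of overlapping genes cannot be told apart, and LINC01138, LINC00623, LINC00869 and LINC01145, which belong to duplicated sequence on chromosome 1, are uncertain for the same reason. At least 3 exons were annotated for 127 genes, and the summed exon length ran from 315 to 27605 bp with a median of 2456 bp.

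Expression was low. The median over the 170 genes was 2.31 CPM, or 1.05 CPM per kb of exon, against 6.63 CPM per kb for the 12231 protein-coding genes with a mean of at least 1 CPM. The highest level not corrected for length was that of LINC00963, at 86.8 CPM, which is described in prostate tumours (named after its level was seen). Per kb, LINC00674 and LINC02331 led with 25.5 and 25.4 CPM per kb, followed by LINC03057 with 13.7, LINC00839 with 10.6 and LINC01234 with 9.45 CPM per kb. LINC03040, LINC00659 and LINC01315 followed with 7.61, 7.43 and 6.92 CPM per kb. All members together took 0.0899% ± 0.000389 (SD, n = 3) of the counts in untreated WT cells, 0.0966% ± 0.00196 in N108 and 0.0971% ± 0.000993 in M3. In bulk RNA, a change in the number of cells that express a gene and a change in its RNA per cell cannot be told apart.

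Of the 170, 115 reached 1 CPM in all 6 groups. Another criterion, a mean of at least 1 CPM over all 18 libraries, was met by 143 genes. Since 12 of the 18 libraries are mutant, it is met more easily by a gene that is high in the mutants than by one that is high in WT. The counts of calls below are over these 143, beside counts with equal weights where the lines are compared, and the other 27 are given by value only. Beyond the 115, the 143 also hold genes that reached 1 CPM in only some groups. Among those named below are LINC00960, LINC02935, LINC02882, LINC00431, LINC02405, LINC02981, LINC02323, LINC03049 and LINC02990. For such a gene, a p-value between a group above and a group below 1 CPM draws in part on the values that selected it. A call is an adjusted p under 0.05 in edgeR's quasi-likelihood test, with Benjamini-Hochberg adjustment over the 19038 genes tested.

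The 143 ranged from steady RNAs to RNAs that depended strongly on the line. The ratio of the highest to the lowest group mean was at most 1.5 for 59 genes, between 1.5 and 2 for 49, and over 2 for 35, with a median of 1.61. By this ratio of group means, the steadiest gene that the naming rule had picked was LINC00674, a pseudogene-derived RNA. Its 18 libraries lay between 16.8 and 21.6 CPM. Those of LINC00839, described in neuroblastoma and other tumours, lay between 22.6 and 26.8 CPM, a narrower range. For LINC00674, no comparison passed the test, and for LINC00839 only M3 against WT with TNF did, with a log2 fold change of 0.14 (SE 0.05, adjusted p = 0.0287). The lowest of the 6 groups was untreated WT for 33 genes and TNF-treated WT for 62, and the highest was untreated M3 for 40 and TNF-treated M3 for 40.

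Without treatment, more of these RNAs were higher than lower in both mutant lines. In N108 against WT, 63 of the 143 were higher and 19 lower, against 20.9% higher and 21.6% lower of all genes tested. In M3 against WT, 71 were higher and 21 lower, against 26.1% and 26.8% of all genes. All genes tested include many below the limit of 1 CPM. Of the 13820 with a mean of at least 1 CPM, 25.1% were higher and 25.8% lower in N108, and 29.8% and 31.5% in M3. The median log2 fold change of the 143 was 0.23 in N108 and 0.33 in M3, beside 0.01 and 0.00 over all genes tested. With the mean taken over the 2 groups compared at equal weight, a criterion chosen after seeing the data, 61 of 142 were higher and 21 lower in N108, and 73 of 149 higher and 25 lower in M3. The same WT libraries served as control in both comparisons.

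The TNF-treated libraries, a separate set, gave like counts. In N108 against WT with TNF, 68 of the 143 were higher and 17 lower, where 23.0% and 23.6% of all genes were. In M3 against WT with TNF, 77 were higher and 23 lower, where 26.9% and 27.8% of all genes were. With equal weights the counts were 64 higher and 20 lower of 138 in N108, and 73 and 27 of 139 in M3. For N108, 53 genes were called higher in both sets of libraries, which is 84.1% of those called without TNF and 77.9% of those called with it, and 15 were called lower in both. For M3, 63 were called higher in both, 88.7% and 81.8% of the respective lists, and 18 lower. In neither line was a gene called in opposite directions. The like overlaps over all genes were not computed, so these values do not set the 143 apart from other genes. Across the 143 genes, which are not independent replicates, Pearson's r between the log2 fold changes of both sets was 0.95 for N108 and 0.96 for M3. This r includes LINC00960, which had almost no counts in WT and lies far from the other points. An r without that gene was not computed, so its part in these values was not tested.

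**Figure D1:**
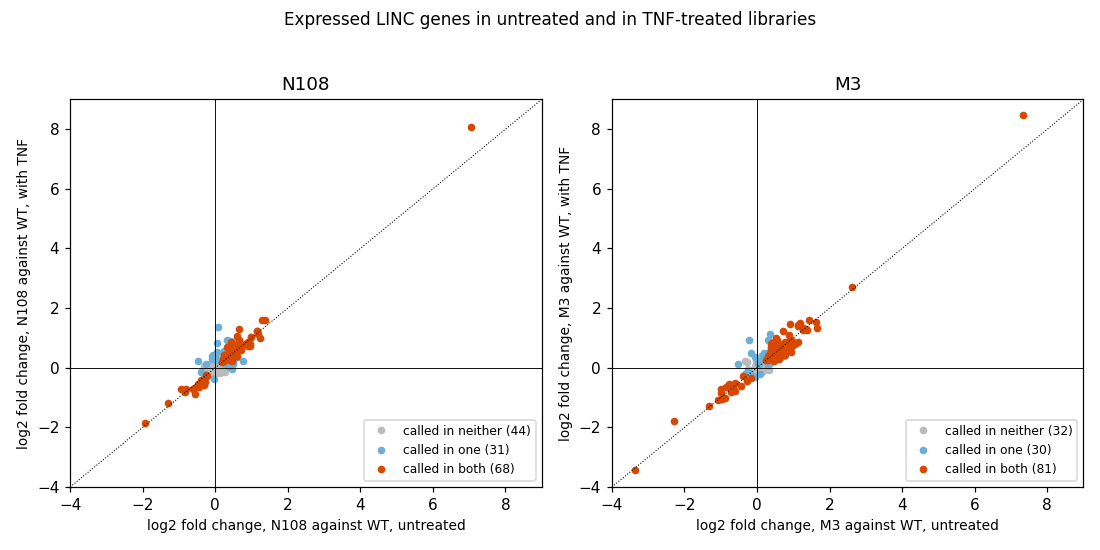
Each point is 1 of the 143 genes, with its log2 fold change of mutant against WT in untreated libraries on the x axis and in TNF-treated libraries on the y axis, for N108 (left) and M3 (right). The dotted line marks equal values, orange points were called in both sets and blue points in 1 set, and the point at the upper right is LINC00960.

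In 42 of the 143 genes (29.4%), all 12 mutant libraries lay above all 6 WT libraries, compared with 13.3% of the 13820 genes with a mean of at least 1 CPM. In 12 genes (8.39%) all 12 lay below, compared with 15.0% of those genes. With equal weights for WT and mutant libraries, 42 of 144 lay above and 15 below, compared with 13.2% and 15.2% of all genes so chosen. The comparison of classes showed how far this extended to other noncoding genes. Among 657 other genes of lincRNA or antisense type with a mean of at least 1 CPM, 29.2% were higher and 12.8% lower in untreated N108, and 43.8% were higher and 15.7% lower in M3. Among protein-coding genes with a mean of 1 to 10 CPM, 28.2% were higher and 23.8% lower in N108, and 32.9% were higher and 28.0% lower in M3. The classes were not tested against each other.

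**Figure D2:**
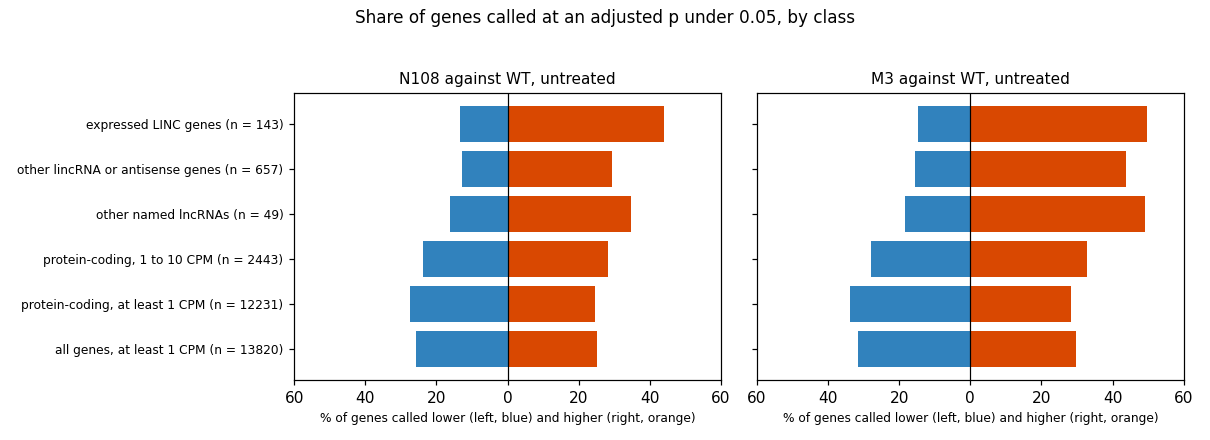
Bars give the percent of genes called higher (orange, to the right) and lower (blue, to the left) in untreated N108 (left panel) and M3 (right panel) against untreated WT, by class, with the number of genes in brackets. In both panels the 3 noncoding classes reach farther to the right than to the left, and all genes with a mean of at least 1 CPM are near balance.

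A list of other named long noncoding RNAs gave 49 genes with a mean of at least 1 CPM, of which 17 were higher and 8 lower in N108, and 24 higher and 9 lower in M3. It holds the SNHG genes, whose introns encode small nucleolar RNAs. The genes named from this list were chosen after their values were seen. GAS5, one of these hosts, had log2 fold changes of 0.36 in N108 (adjusted p = 1.70e-06) and 0.90 in M3 (adjusted p = 2.76e-14). The hosts did not all rise. SNHG12 had -0.30 in N108 (adjusted p = 0.000236) and -0.06 in M3 (adjusted p = 0.402), and SNHG7 and SNHG17 passed in neither line. LUCAT1, an RNA induced by stress and interferon, had log2 fold changes of 3.04 in N108 (adjusted p = 1.99e-09) and 2.40 in M3 (adjusted p = 6.08e-08). On the lower side, MIR4435-2HG and CYTOR, a pair of near-identical genes whose reads may have been split between them, had -1.15 and -0.77 in N108 and -2.12 and -1.57 in M3, with adjusted p between 1.25e-18 and 6.62e-08. MALAT1, an abundant nuclear RNA, had -0.24 (adjusted p = 0.399) and 0.10 (adjusted p = 0.709), and neither passed. MALAT1 and NEAT1 together took 0.0302% of counts in untreated WT, 0.0258% in N108 and 0.0352% in M3, and the part of this difference in the counts above was not tested.

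Of the 143, LINC02882 had the largest log2 fold change among the genes called lower in the mutants. LINC00705, one of the 27 given by value only, differed more between WT and both mutants. LINC02882 lies on chromosome 12 between 74133166 and 74402535 on the minus strand, with no established function. Its levels were 5.32, 5.34 and 4.64 CPM in untreated WT, 1.28, 1.32 and 1.41 CPM in N108 and 0.363, 0.504 and 0.613 CPM in M3, so the 3 lines did not overlap. The values were a log2 fold change of -1.94 (SE 0.12, adjusted p = 1.23e-13) in N108, and a log2 fold change of -3.37 (SE 0.14, adjusted p = 2.41e-17) in M3. N108 was above M3 with a log2 fold change of 1.43 (SE 0.17, adjusted p = 1.87e-07).

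LINC02762 lies on chromosome 11 between 112270749 and 112362534, 794 bp beyond PTS, the gene of an enzyme of tetrahydrobiopterin synthesis. It measured 6.49, 6.82 and 7.26 CPM in WT, 2.82, 2.74 and 2.68 CPM in N108 and 3.65, 3.3 and 3.42 CPM in M3. The mutant libraries were all below the WT libraries, and N108 was below M3. The tests gave a log2 fold change of -1.32 (SE 0.08, adjusted p = 5.77e-13) in N108 and a log2 fold change of -0.98 (SE 0.08, adjusted p = 9.57e-11) in M3. The TNF-treated libraries repeated the order, with 6.38, 6.65 and 6.11 CPM in WT, 2.98, 2.8 and 2.55 CPM in N108 and 3.45, 3.57 and 3.71 CPM in M3.

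The promoter of LINC02762 (RefSeq, GRCh38.p14, chr11:112270499-112270798, plus strand, 250 bases before to 50 bases after the start) has a match to the NF-κB consensus at positions 238 to 247 and to the AP-1 motif TGANTCA at positions 287 to 293, both in capitals and counted from the first base printed.
LINC02762: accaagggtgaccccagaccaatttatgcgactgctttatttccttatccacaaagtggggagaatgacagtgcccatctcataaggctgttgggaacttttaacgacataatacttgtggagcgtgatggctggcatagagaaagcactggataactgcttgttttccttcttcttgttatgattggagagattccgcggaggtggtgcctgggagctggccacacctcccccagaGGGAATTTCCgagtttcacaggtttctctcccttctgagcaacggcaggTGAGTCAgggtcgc
The NF-κB consensus, searched on both strands, occurred in 5.91% of all 35116 promoters of this length in the RefSeq table and in 7 of the 109 members found there (6.42%). The AP-1 motif occurred in 7.71% of all promoters and in 10 members (9.17%), the CRE motif TGACGTCA in 1.85% and 4 members (3.67%), and TATAAA in 11.5% and 14 members (12.8%). The searched motifs share no whole match, and a match is a description of the letters only. LINC02762 was lower in mutants and its log2 fold change with TNF in WT was -0.10 (adjusted p = 0.538), which did not pass.

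LINC00431, a transcribed pseudogene on chromosome 13, was graded in the same order as LINC02882. It measured 1.65, 1.8 and 1.66 CPM in WT, 1.04, 0.821 and 0.801 CPM in N108 and 0.398, 0.309 and 0.333 CPM in M3. The changes were a log2 fold change of -0.94 (SE 0.15, adjusted p = 1.19e-05) in N108, and a log2 fold change of -2.29 (SE 0.19, adjusted p = 3.48e-11) in M3. LINC01338, on chromosome 5, followed the same grading with log2 fold changes of -0.46 (adjusted p = 0.00297) and -1.31 (adjusted p = 4.08e-09).

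LINC00857, which is described as promoting growth of several carcinoma lines, starts 2138 bp from ANXA11 on the opposite strand. Its levels were 10.4, 10.4 and 9.6 CPM in WT, 7, 5.92 and 7.07 CPM in N108 and 5.75, 5.48 and 5.36 CPM in M3, without overlap between the lines. It fell by 0.61 (SE 0.08, adjusted p = 1.93e-07) in N108 and by 0.88 (SE 0.08, adjusted p = 2.55e-10) in M3 on the log2 scale. LINC01588 and LINC01186, neither with an established function, were lower in both lines by like amounts. LINC01588 had -0.81 in N108 and -1.0 in M3 (adjusted p = 9.03e-07 and 2.47e-08), and LINC01186 had -0.84 and -0.77 (adjusted p = 2.51e-06 and 6.22e-06).

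LINC02964 differed in M3 alone among the untreated lines. It measured 4.15, 4.62 and 4.58 CPM in WT and 4.53, 4.74 and 4.47 CPM in N108, which overlapped, and 2.04, 2.34 and 1.95 CPM in M3, below both. M3 against WT gave a log2 fold change of -1.07 (SE 0.11, adjusted p = 4.72e-09), and N108 against M3 gave a log2 fold change of 1.12 (SE 0.11, adjusted p = 7.69e-09).

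Of the genes higher in the mutants, LINC00960 stood apart because WT cells had almost none of it. It lies on chromosome 3 between 75672391 and 75679303 and overlaps ZNF717, a zinc finger gene, on the opposite strand. Each untreated WT library held 1 count, whereas the N108 libraries held 125, 181 and 155 counts and the M3 libraries 167, 180 and 153. With TNF, the WT libraries held 0, 0 and 1 count, the N108 libraries 113, 115 and 162, and the M3 libraries 195, 158 and 148. The gene reached 1 CPM only in the mutant groups, so a test against WT draws on the values that selected it, and its p-values are not given. A fitted fold against so few counts depends on the prior count and is not given either. N108 and M3 were not told apart by the test (log2 fold change -0.28, SE 0.13, adjusted p = 0.102).

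The promoter of LINC00960 (RefSeq, GRCh38.p14, chr3:75672031-75672330, plus strand, its start 110 bp before that of GENCODE 29) is shown as that of the gene with the sharpest difference between the lines. None of the 4 motifs occurs in it, and it holds 15 CpG against a median of 14 over all promoters.
LINC00960: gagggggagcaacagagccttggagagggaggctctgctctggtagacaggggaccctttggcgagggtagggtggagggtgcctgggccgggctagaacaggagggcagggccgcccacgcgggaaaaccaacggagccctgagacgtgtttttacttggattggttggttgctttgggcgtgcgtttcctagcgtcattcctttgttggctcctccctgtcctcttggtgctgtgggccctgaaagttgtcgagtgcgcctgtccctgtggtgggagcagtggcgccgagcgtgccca

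**Figure D3:**
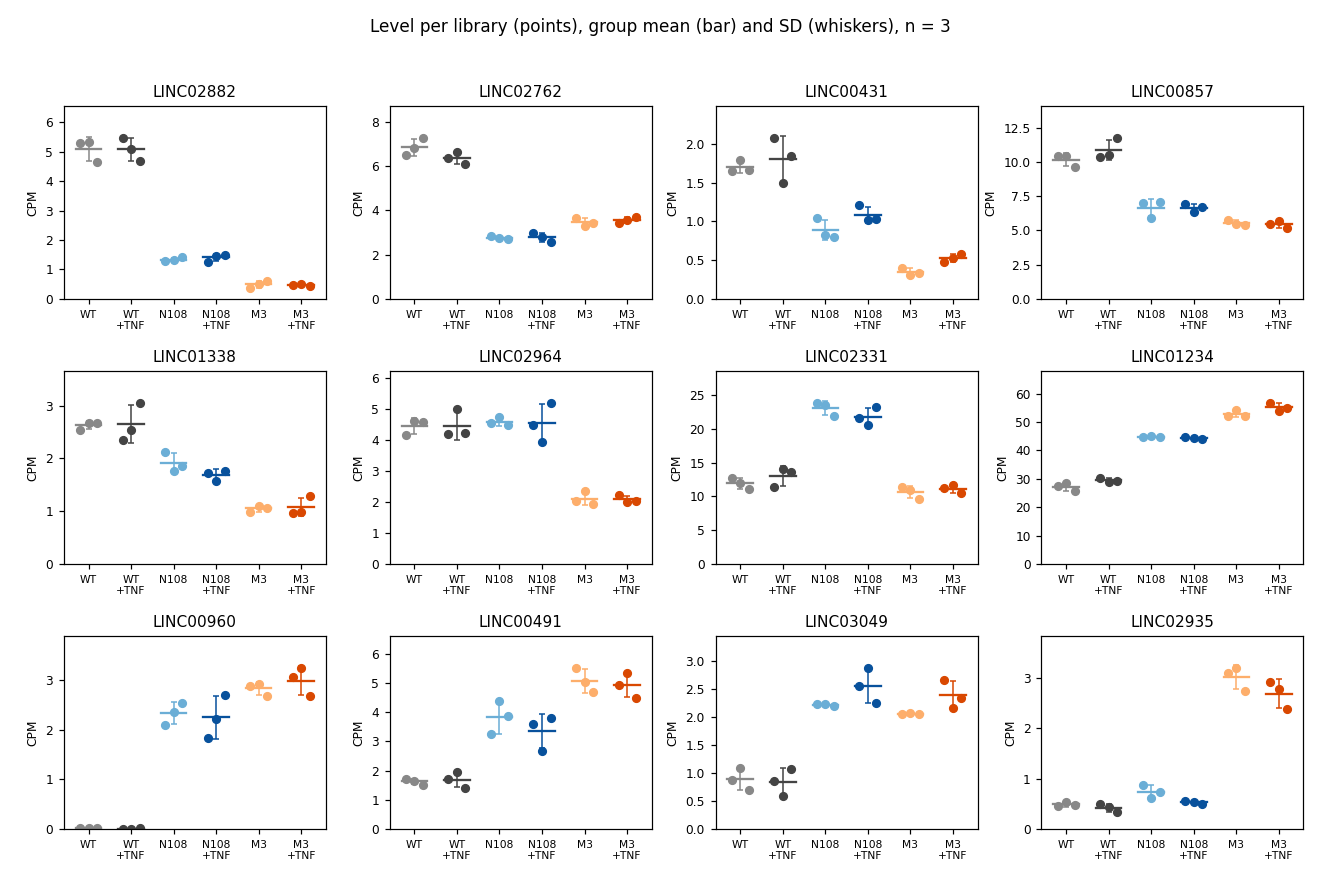
Level in CPM (y axis, from 0) of 12 members in the 6 groups (x axis), with a point for each library, a bar for the group mean and whiskers for the SD (n = 3). LINC02882, LINC00431 and LINC01338 step down from WT to N108 to M3, LINC02331 is high in N108 and LINC02935 in M3, and LINC00960 is near 0 in WT.

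LINC01234, described as raised in gastric and colorectal tumours, was among the most expressed members and rose in both lines. It measured 27.5, 28.5 and 25.8 CPM in WT, 44.8, 45.3 and 44.7 CPM in N108 and 52.2, 54.4 and 52.2 CPM in M3. The 3 lines were ordered without overlap, with a log2 fold change of 0.72 (SE 0.05, adjusted p = 7.2e-13) in N108 and a log2 fold change of 0.95 (SE 0.05, adjusted p = 8.21e-16) in M3. The difference of N108 from M3 was a log2 fold change of -0.24 (SE 0.05, adjusted p = 0.000211).

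LINC02331, on chromosome 14, was high in N108 and not in M3. It measured 12.7, 12 and 11.1 CPM in WT, 23.8, 23.6 and 21.9 CPM in N108 and 11.4, 11 and 9.62 CPM in M3. WT and M3 overlapped, and N108 was above both. N108 against WT gave a log2 fold change of 0.95 (SE 0.08, adjusted p = 4.17e-11), and N108 against M3 gave a log2 fold change of 1.12 (SE 0.08, adjusted p = 5.01e-12). With TNF, N108 measured 21.7, 20.6 and 23.3 CPM and M3 11.2, 11.6 and 10.5 CPM.

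LINC02935 was the counterpart in M3. It lies on chromosome 10 between 112888735 and 112906111, 44139 bp from TCF7L2, the gene of a transcription factor of the Wnt pathway. Its levels were 0.451, 0.537 and 0.48 CPM in WT, 0.873, 0.612 and 0.736 CPM in N108 and 3.1, 3.19 and 2.73 CPM in M3. N108 was slightly above WT, with a log2 fold change of 0.58 (SE 0.19, adjusted p = 0.015). M3 was far above both, with a log2 fold change of 2.62 (SE 0.16) against WT. The gene reached 1 CPM only in the M3 groups, so this last difference draws on the values that selected it and its p-value is not given.

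Several members of low level rose in both lines. LINC03049 measured 0.876, 1.09 and 0.7 CPM in WT, 2.23, 2.23 and 2.19 CPM in N108 and 2.06, 2.08 and 2.05 CPM in M3. LINC02323 measured 0.773, 0.906 and 0.7 CPM in WT, 2.13, 1.95 and 2.09 CPM in N108 and 1.73, 1.69 and 1.86 CPM in M3. For both, the mutant libraries lay above the WT libraries, and neither differed between N108 and M3 by the test (adjusted p = 0.633 and 0.241). LINC00513, described as a promoter of interferon signalling, had log2 fold changes of 1.16 in N108 and 1.04 in M3 (adjusted p = 1.67e-07 and 8.01e-07). LINC02405 had 1.18 and 1.42 (adjusted p = 5.48e-06 and 1.36e-07).

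In 3 other members the rise was larger in M3 than in N108, by the test between the mutants. LINC00491 had 1.23 in N108 and 1.63 in M3 (N108 against M3: -0.40, adjusted p = 0.0118). LINC02981 had 0.83 and 1.65 (N108 against M3: -0.82, adjusted p = 0.000379). LINC02709 had 0.94 and 1.37 (N108 against M3: -0.43, adjusted p = 0.02). The log2 fold changes of these 3 genes against WT passed the test in both lines.

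Compared directly without TNF, N108 had 16 of the 143 higher than M3 and 28 lower, where 16.4% and 15.0% of all genes were. Of the genes with a mean of at least 1 CPM, 19.9% were higher and 17.9% lower. The 657 other genes of lincRNA or antisense type gave 60 higher and 181 lower. LINC00886 was the only one of the 143 called in opposite directions against WT. It measured 6.81, 6.4 and 6.04 CPM in WT, 4.78, 5.29 and 5.5 CPM in N108 and 8.43, 8.11 and 7.76 CPM in M3, with a log2 fold change of -0.31 (SE 0.09, adjusted p = 0.00594) in N108 and a log2 fold change of 0.33 (SE 0.09, adjusted p = 0.00196) in M3. Its difference between the mutants was a log2 fold change of -0.64 (SE 0.09, adjusted p = 1.96e-06).

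Among the 27 members below a mean of 1 CPM, the 6 with the widest range between groups are given by value only. LINC00705 had 105, 62 and 47 counts in the untreated WT libraries, 2, 1 and 0 in N108, and 1, 0 and 0 in M3. LINC01366 had the opposite arrangement, with 0.0644, 0.184 and 0.04 CPM in untreated WT, 1.64, 1.52 and 1.16 CPM in N108 and 0.952, 0.861 and 0.929 CPM in M3. LINC00326 and LINC02458 were low in N108. LINC00326 measured 1.8, 1.52 and 1.74 CPM in WT, 0.101, 0.169 and 0.0818 CPM in N108 and 1.19, 0.813 and 0.789 CPM in M3. LINC02458 measured 1.65, 1.23 and 1.34 CPM in WT, 0.269, 0.326 and 0.458 CPM in N108 and 0.952, 0.894 and 1.07 CPM in M3. LINC01559 and LINC00926 were highest in WT and lowest in M3. LINC01559 measured 1.44 ± 0.052 CPM (SD, n = 3) in WT, 0.681 ± 0.195 CPM in N108 and 0.378 ± 0.115 CPM in M3. LINC00926 measured 1.52, 1.86 and 1.66 CPM in WT, 0.654, 1.03 and 0.851 CPM in N108 and 0.485, 0.504 and 0.596 CPM in M3.

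Genes beside the members were examined because some intergenic RNAs are transcribed together with a neighbour. Over the 108 members that overlap no coding gene and whose nearest coding gene was tested, the log2 fold changes of member and neighbour were weakly related. Pearson's r was 0.17 in N108 and 0.22 in M3, and Spearman's rho was 0.19 and 0.13. These are descriptions across genes of the same libraries. In N108, 63 of the members and 68 of the neighbours passed the test, and both genes of a pair passed in 43 pairs, 26 of them in the same direction and 17 in opposite directions. In M3, 72 members and 72 neighbours passed, with 26 pairs in the same direction and 24 in opposite directions. How many pairs would pass jointly given these separate counts alone was not computed, so the joint counts carry no statement on shared regulation. A few pairs chosen after their values were seen illustrate both directions. PTS, beside LINC02762, measured 49.3 ± 0.699 CPM (SD, n = 3) in untreated WT, 19.5 ± 0.447 in N108 and 17.0 ± 0.344 in M3. PAM, a peptide-amidating enzyme 82422 bp from LINC00491, measured 276 ± 1.81 CPM, 594 ± 4.94 and 796 ± 6.66. TCF7L2, beside LINC02935, measured 104 ± 4.68 CPM, 198 ± 9.61 and 320 ± 23.7. BMP4, a ligand of the BMP pathway 98854 bp from LINC02331, measured 104 ± 2.53 CPM in WT cells, 168 ± 8.03 CPM in N108 and 107 ± 3.56 CPM in M3, so that it too was high in N108. LINC00659 rose by 0.48 and 0.35 on the log2 scale (adjusted p = 0.000647 and 0.00926) beside NTSR1, the neurotensin receptor, which rose by 0.88 and 1.11. The pairs of LINC03057 and LINC01315 passed the test in opposite directions. LINC03057, 2351 bp from HOXB7, rose by 0.22 in N108 and 0.26 in M3 (adjusted p = 0.0159 and 0.0033), while HOXB7 fell from 83.0 ± 2.79 CPM to 51.6 ± 0.311 and 46.4 ± 1.22 CPM. LINC01315 rose by 0.26 and 0.31 (adjusted p = 0.00708 and 0.00101) beside NFAM1, which had log2 fold changes of -0.83 and -1.27.

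**Figure D4:**
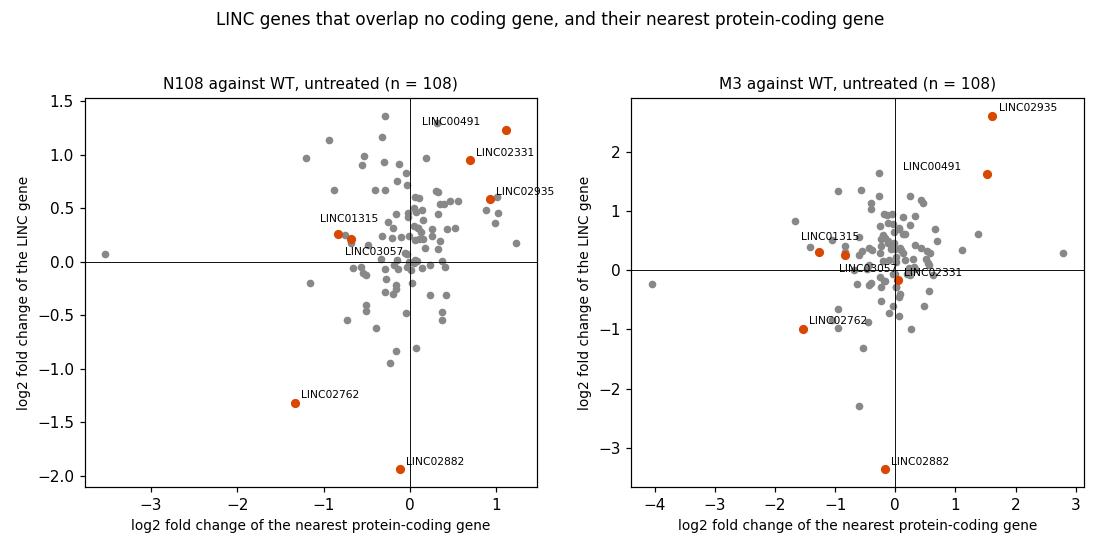
Each point is 1 of 108 members that overlap no coding gene, with the log2 fold change of its nearest protein-coding gene on the x axis and its own on the y axis, for untreated N108 (left) and M3 (right) against WT. Labelled pairs are named in the text, and the points form no line, with Pearson's r at 0.17 and 0.22.

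TNF for 40 min changed few of these RNAs. In WT, 1 of the 143 was higher (0.699%) and 7 were lower (4.90%), where 2.03% and 3.15% of all genes were. Protein-coding genes with a mean of 1 to 10 CPM gave 2.05% higher and 6.43% lower, so the members' shares were near the background. The count of 8 fell to 3 without untreated WT replicate 2 and to 4 without TNF-treated WT replicate 3, and the latter library held the lowest of all 18 values for 6 of the 7 lower genes. Among other genes of lincRNA or antisense type, 4 of 657 were higher and 39 lower, and among the named long noncoding RNAs 0 of 49 were higher by edgeR (2 at an unadjusted p under 0.05) and 6 lower. MALAT1 and NEAT1 together took 0.0302% ± 0.00107 of counts in untreated WT and 0.0186% ± 0.00496 with TNF (SD, n = 3), lowest in replicate 3 with 0.0129%, and the part of this in the falls was not tested.

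LINC01089, also called LIMT and described as an RNA repressed by EGF that restrains metastasis of mammary cells, was the clearest of these. It measured 4.15, 3.99 and 4 CPM in untreated WT and 2.83, 2.2 and 1.98 CPM with TNF, which did not overlap, with a log2 fold change of -0.80 (SE 0.12, adjusted p = 5.16e-05). In N108 it measured 3.83, 4.53 and 4.07 CPM untreated and 4.09, 4.73 and 3.6 CPM with TNF, and in M3 3.57, 3.59 and 3.7 and 3.24, 3.08 and 3.45 CPM. The difference of the TNF response between N108 and WT, tested as an interaction, was a log2 fold change of 0.79 (SE 0.16, adjusted p = 0.00802). For M3 it was 0.65 (SE 0.16), with an adjusted p of 0.0801. This difference for M3 passed after each library's trend with GC content was removed (adjusted p = 0.0404), without the low-count filter (adjusted p = 0.0115), or without TNF-treated WT replicate 1 (adjusted p = 0.0163) or TNF-treated N108 replicate 2 (adjusted p = 0.0435). The gene overlaps RHOF on the same strand, so some of its reads may belong to RHOF.

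LINC02593, on chromosome 1 and 2912 bp from SAMD11, measured 6.67, 6.51 and 6.82 CPM in untreated WT and 4.45, 4.22 and 3.22 CPM with TNF, with a log2 fold change of -0.76 (SE 0.12, adjusted p = 0.000108). It measured 10.0, 10.7 and 10.6 CPM in N108 and 12.7, 11.2 and 13.9 CPM in M3 without TNF, above WT in each library. With TNF these were 10.0, 10.8 and 8.31 CPM and 10.5, 12 and 9.97 CPM, and the ranges overlapped with the untreated ones. The interaction for N108 was a log2 fold change of 0.64 (SE 0.15, adjusted p = 0.023), and it no longer passed in 6 of the fits that left out 1 library, with adjusted p from 0.0534 to 0.099. These left out untreated WT replicate 2 or 3, TNF-treated WT replicate 3, untreated N108 replicate 1 or TNF-treated N108 replicate 1 or 2. For M3 it was 0.54 (SE 0.15, adjusted p = 0.15). With the GC trend removed, the order turned round: the interaction was 0.48 for N108 (adjusted p = 0.0816), which did not pass, and 0.52 for M3 (adjusted p = 0.0451), which did. The M3 interaction also passed without the low-count filter (adjusted p = 0.00188).

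LINC02990, a gene of antisense type on chromosome 8 beside MAFA, measured 1.3, 1.47 and 1.12 CPM in untreated WT and 0.569, 0.803 and 0.418 CPM with TNF. The change was a log2 fold change of -1.14 (SE 0.20, adjusted p = 0.000501). In N108 the levels were 1.31, 1.28 and 1.59 CPM and 1.47, 1.45 and 1.63 CPM, and the interaction was a log2 fold change of 1.27 (SE 0.26, adjusted p = 0.00917). For M3 the interaction was 1.15 (SE 0.27), with an adjusted p of 0.0608. It passed in 7 alternatives, among them DESeq2 (adjusted p = 0.0444), the removal of the GC trend (adjusted p = 0.0358) and no low-count filter (adjusted p = 0.00551), the others being the GC trend with a replicate block and the omission of TNF-treated WT replicate 2, TNF-treated N108 replicate 2 or untreated M3 replicate 3 (adjusted p from 0.0237 to 0.0476). For none of the 3 genes was the interaction for N108 tested against that for M3.

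The calls of other falls in WT depended on single libraries or on a setting. LINC00173, reported in immune and lung cells, fell from 11.9, 13 and 9.58 CPM to 8.46, 7.54 and 5.34 CPM (log2 fold change -0.70, SE 0.15, adjusted p = 0.0112), and the call ended without untreated WT replicate 2 (adjusted p = 0.0608) or with the WT groups fitted alone (adjusted p = 0.12). LINC02298 fell by 0.45 (SE 0.10, adjusted p = 0.00729), and the call ended without untreated WT replicate 2 (adjusted p = 0.0627) or TNF-treated WT replicate 3 (adjusted p = 0.0518). LINC00482 fell by 0.40 (SE 0.11, adjusted p = 0.0286), and the call ended in 4 of the fits that left out 1 library, those without untreated WT replicate 2 or 3 or TNF-treated WT replicate 2 or 3 (adjusted p from 0.0634 to 0.204). It also ended with the GC trend removed (adjusted p = 0.0636), and with a replicate block added (adjusted p = 0.0609). LINC01237 and LINC01833, named after their values were seen as the rest of the 8, had -0.88 (adjusted p = 0.0358) and 0.30 (adjusted p = 0.0369).

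**Figure D5:**
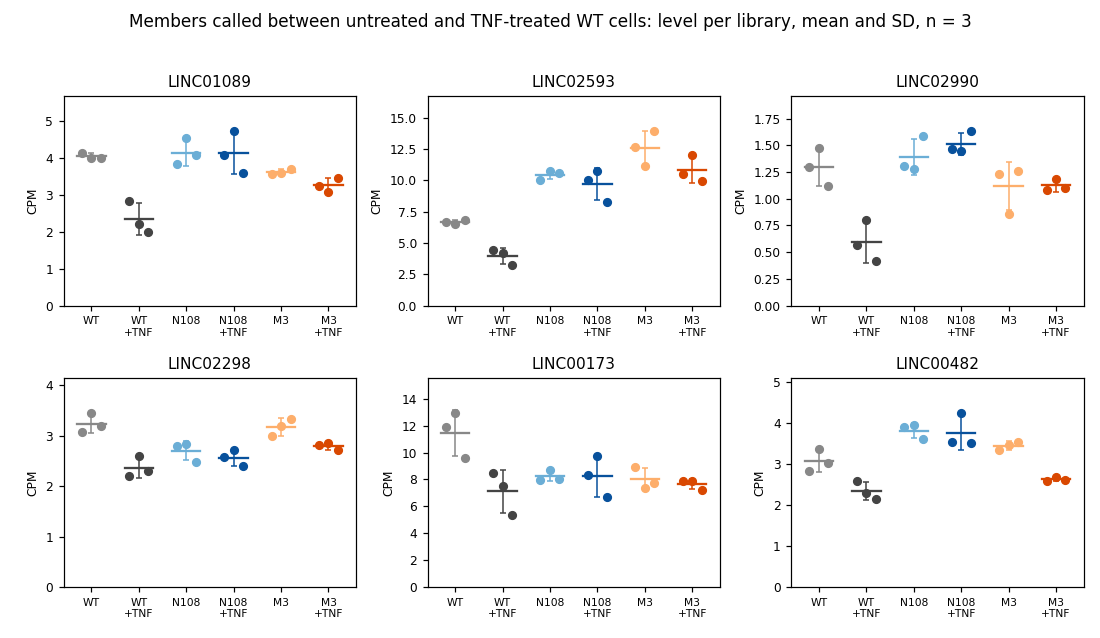
Level in CPM (y axis, from 0) of 6 members called between untreated and TNF-treated WT cells, in the 6 groups (x axis), with a point for each library, a bar for the mean and whiskers for the SD (n = 3). In each panel the TNF-treated WT points lie below the untreated WT points, while the N108 points with and without TNF overlap.

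Promoters of 3 of these genes are shown because the genes fell together in WT cells after TNF. All 3 are from RefSeq on GRCh38.p14: LINC01089 at chr12:121802897-121803196 on the minus strand, LINC02593 at chr1:919643-919942 on the minus strand, and LINC00173 at chr12:116533172-116533471 on the plus strand. The RefSeq starts lie 960 bp, 1324 bp and 0 bp from those of GENCODE 29. None of the 4 motifs occurs in these windows, nor in those of LINC02298 and LINC00482, which says only that these letters are not there.
LINC01089: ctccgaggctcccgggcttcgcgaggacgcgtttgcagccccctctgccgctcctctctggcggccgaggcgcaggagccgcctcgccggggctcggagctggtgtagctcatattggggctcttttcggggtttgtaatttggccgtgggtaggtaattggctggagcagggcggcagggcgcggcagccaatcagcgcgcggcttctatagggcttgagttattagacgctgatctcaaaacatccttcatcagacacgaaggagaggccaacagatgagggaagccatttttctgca
LINC02593: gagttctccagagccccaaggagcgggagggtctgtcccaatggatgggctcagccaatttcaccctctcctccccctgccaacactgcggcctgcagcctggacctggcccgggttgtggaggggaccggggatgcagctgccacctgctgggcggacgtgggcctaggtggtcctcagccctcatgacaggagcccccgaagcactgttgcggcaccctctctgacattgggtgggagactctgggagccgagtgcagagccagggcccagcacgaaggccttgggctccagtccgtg
LINC00173: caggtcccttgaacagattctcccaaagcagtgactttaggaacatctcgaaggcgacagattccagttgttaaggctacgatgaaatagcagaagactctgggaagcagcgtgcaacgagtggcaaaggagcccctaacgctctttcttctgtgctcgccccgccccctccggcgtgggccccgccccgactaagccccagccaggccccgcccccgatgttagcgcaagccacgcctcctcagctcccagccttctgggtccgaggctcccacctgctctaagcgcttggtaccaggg

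In N108, TNF changed 0 of the 143 by edgeR's quasi-likelihood test, where 1.10% of all genes were higher and 0.0998% lower. Before adjustment, a p under 0.05 was found for 1 higher and 5 lower genes, and DESeq2 also called 0. The smallest p belonged to LINC00920, which measured 5.45, 4.83 and 5.02 CPM untreated and 3.96, 4.01 and 4.1 CPM with TNF. Its log2 fold change was -0.34 (SE 0.09, adjusted p = 0.0729), which passed when N108 with TNF replicate 3 or untreated M3 replicate 3 was left out (adjusted p = 0.0424 and 0.0429) or without the low-count filter (adjusted p = 0.0418). LINC01806 and LINC01521 came next, with -0.26 (adjusted p = 0.147, or 0.0355 without that filter) and 0.31 (adjusted p = 0.262).

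In M3, 0 of the 143 were higher with TNF and 1 was lower, where 1.10% and 0.278% of all genes were. This was LINC03040, listed as C6orf223 in GENCODE 29. It measured 29.4, 31 and 28.7 CPM untreated and 22.5, 25.6 and 24.3 CPM with TNF, which did not overlap, with a log2 fold change of -0.30 (SE 0.06, adjusted p = 0.00711). The call ended without untreated M3 replicate 2 (adjusted p = 0.0596) or TNF-treated M3 replicate 1 (adjusted p = 0.107). With no adjustment, edgeR's p was under 0.05 for 6 higher and 10 lower genes.

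The response to TNF differed between N108 and WT for 3 of the 143 (2.10%), all with a higher value in N108 and 0 with a lower one. Of all genes, 2.03% were higher and 0.583% lower, so the share of the 143 called higher was near the background. At an unadjusted p under 0.05 there were 11 and 3. For M3 against WT the count was 0 in either direction in edgeR's quasi-likelihood test, where 0.284% of all genes were higher and 0.0315% lower. Before adjustment, 11 and 4 genes had a p under 0.05, and DESeq2 called 1. Both interactions share the WT libraries. The medians over the 143 were 0.02 and 0.01 on the log2 scale, beside 0.01 and -0.02 over all genes tested.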

How the data were processed

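Per the submitters' processing notes, reads were handled with STAR 2.7.8, Trim Galore 0.6.6, DESeq2 1.38.3 and featureCounts (Subread 2.0.1) on hg38; for the annotation release and strand setting, the sources used here give nothing. The authors deposited raw counts per gene, which were used, and a normalized log2 table, which was not. The genes and lists were chosen with earlier results of these data known. Symbols came from a gene name table, and positions, exon lengths and types from GENCODE 29 on GRCh38.

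R 4.3.3 with edgeR 4.0.16 was used to test the counts, after filterByExpr with a minimum count of 10 (19038 genes, 99.97% of counts), TMM scaling, and 1 robust quasi-likelihood model over the 6 groups with 12 residual degrees of freedom. Tests were two-sided. An SE was obtained by dividing the size of the log2 fold change by the root of the F statistic. Levels are CPM on TMM-scaled totals, except for the CPM of the selection rule, which used column totals. The test was tried on simulated data. DESeq2 1.42.0, other scalings and filters, a replicate block, a GC correction and the omission of each library were alternatives, and equal group weights in choosing the genes counted were added after seeing the data.

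Genes named are the 8 highest per kb, the 6 lowest and 6 highest called genes without overlap of libraries in each untreated comparison, up to 6 called genes of smallest p per TNF comparison (or 3 where none was called), the 6 widest of the 27 given by value, and genes called in opposite directions. Named long noncoding RNAs outside these rules were chosen after their values were seen. Reads carry no molecular identifiers, so a count is not a number of molecules. TMM factors lay between 0.976 and 1.014.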

Additional observations from a re-analysis of the deposited data

Results flagged for a closer look

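The response to TNF differed between the N108 line and WT for 3 of the genes described, by the interaction term of edgeR's quasi-likelihood test. They are 2.10% of the 143, near the 2.03% of all genes tested that were called in that direction. The difference (N108 minus WT, log2) was 0.789 for LINC01089, 0.645 for LINC02593 and 1.27 for LINC02990, each with a fall in WT cells and no called change in N108. In all 3 the lowest of the 18 libraries was TNF-treated WT replicate 3, and without that library the LINC02593 difference no longer passed (log2 difference 0.509, adjusted p = 0.099), nor did it with the GC trend removed (0.477, adjusted p = 0.0816). For M3 against WT the same 3 genes missed the threshold, and passed it with the GC trend removed (adjusted p between 0.0358 and 0.0451). No outlying library was looked for within groups, because each group has 3.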

How the results depend on the processing

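The 5 counts of calls between lines stayed within 1.5 times under each alternative, and so did all 10 counts with equal weights for the groups compared, chosen after seeing the data. Of 1039 values of single named genes under an alternative, 1000 kept direction and side of the threshold, 20 lost and 19 gained the call, and 0 reversed. Among the 143 genes, the count for TNF in WT (8) was 13 without the low-count filter and 3 to 10 with 1 library left out. For TNF in N108 (0) it was 2 without the filter and 0 to 1 with 1 library left out, and for TNF in M3 (1) 0 to 2. For the TNF response of N108 against WT (3) it was 5 without the filter and 2 to 5 with 1 library left out. For that of M3 against WT (0) it was 1 with DESeq2, 5 without the filter, 3 with the GC trend removed, 4 with the GC trend removed and a replicate block, and 0 to 2 with 1 library left out. The cause was not tested. With a mean of 2 CPM as the limit, 112 genes would have been selected.

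The labels state no pairing by replicate number, and the main fit used none. In no comparison was the correlation of deviations above 0.1 for all 3 same-numbered pairs, but single pairs were well above it. The values were -0.0909, 0.349 and 0.487 for untreated N108 and M3, and 0.377, -0.0376 and 0.370 for untreated M3 and WT. They were 0.0741, 0.0850 and 0.273 for untreated N108 and WT, and -0.236, -0.289 and -0.375 for TNF in N108. At most 4 of 6 libraries correlated best with their own number. Whether same-numbered libraries shared a batch was not tested. With a replicate block the counts were 80 (N108) and 93 (M3) untreated, 84 and 102 with TNF, 43 between the mutants, 9, 0 and 1 for TNF in WT, N108 and M3, and 4 and 0 for the interactions.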
